A study of Mus musculus with 7 samples.

Results

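Prss28, Prss29 and Spink12 encode 2 secreted serine proteases and 1 Kazal-type protease inhibitor, and their RNA was followed through 7 libraries of mouse endometrial epithelial cells. The 3 genes were taken by symbol, written PRSS28, PRSS29 and SPINK12 in the deposited table of 24353 genes. They were selected on their FPKM in these same 7 libraries, so their levels and fold changes are given as a description, without a p-value. All mice were C57BL/6 females whose ovaries were removed at 6 to 7 weeks of age, so every group lacked its main natural source of estrogen and progesterone. The groups were tamoxifen plus alpelisib (2 libraries, tamoxifen at 0.5 mg/day and the PI3K alpha inhibitor alpelisib at 30 mg/kg/day), tamoxifen (2 libraries, 0.5 mg/day), estradiol (2 libraries, a 0.01 mg pellet made to release over 60 days) and vehicle, the estrogen-deprived state (1 library), each over 28 days. The libraries of the first 3 groups carry mouse numbers 1 and 2, while the vehicle library carries none, and the labels do not say how many mice it holds or how epithelium was separated from the uterine horns.

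Prss28 and Prss29 are tryptase-related serine proteases known in the mouse as implantation serine proteinases 1 and 2, and both are secreted by uterine glands around the time of implantation. Work in mice has tied them to progesterone in the uterus and to embryo hatching and invasion. Spink12 belongs to the serine peptidase inhibitor, Kazal type family, whose members block trypsin-like enzymes by offering them a tightly held loop in place of a substrate. Tamoxifen binds the estrogen receptor and acts in the uterus partly as an agonist.

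The deposited values were FPKM, fragment counts scaled to transcript length and to the mapped fragments of the library. From the smallest steps between low values, 6 libraries were estimated to hold 13600000 to 16500000 fragments. In estradiol library 2, too few genes lay at the lowest step, within the range searched, for an estimate. Between 10109 and 11167 genes reached 1 FPKM in a library. The 13 epithelial markers summed to 7321 and 7927 FPKM with tamoxifen plus alpelisib, 5368 and 7248 with tamoxifen, 3711 and 3056 with estradiol and 7787 with vehicle. The sums of 10 stromal markers were 121 and 129 FPKM with tamoxifen plus alpelisib, 55.1 and 55.0 with tamoxifen, 188 and 180 with estradiol and 260 with vehicle. Both sums moved with treatment, and their part in the results below was not tested. Foxa2, which defines the glandular cells of the uterus, stood at 0.334 to 1.38 FPKM, passing 1 FPKM in 2 libraries. Of the 25 gland genes in the table, 17 reached 10 FPKM in at least 1 library, among them Cdh1, also 1 of the 13 epithelial markers. That count does not show how much glandular RNA the libraries held.

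The 2 protease genes lie next to each other on chromosome 17, and their promoters are shown because they share sequence while their RNA levels differed widely. The windows run from 250 bases before to 50 bases after each annotated start, in the RefSeq annotation of GRCm38.p6, and both are on the plus strand, at chr17:25308396-25308695 for Prss28 and chr17:25318404-25318703 for Prss29. Capitals mark runs of at least 8 bases that are identical and aligned in both.
Prss28: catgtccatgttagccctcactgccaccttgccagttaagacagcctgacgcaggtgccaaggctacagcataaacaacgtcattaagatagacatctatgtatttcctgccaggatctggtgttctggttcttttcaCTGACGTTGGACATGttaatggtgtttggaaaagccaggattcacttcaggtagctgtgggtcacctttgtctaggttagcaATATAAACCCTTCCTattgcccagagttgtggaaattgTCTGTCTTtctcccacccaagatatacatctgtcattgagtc
Prss29: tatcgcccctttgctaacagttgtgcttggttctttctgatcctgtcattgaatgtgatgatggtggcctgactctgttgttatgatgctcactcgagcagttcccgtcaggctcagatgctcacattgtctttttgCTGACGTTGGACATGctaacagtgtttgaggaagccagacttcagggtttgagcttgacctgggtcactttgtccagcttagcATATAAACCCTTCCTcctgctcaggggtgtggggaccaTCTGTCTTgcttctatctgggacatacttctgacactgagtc
Of 291 aligned bases, 196 were identical (67.4%). The pair of 15-base runs, CTGACGTTGGACATG and ATATAAACCCTTCCT, occurred in no other promoter of the 32817 searched on both strands. The second holds the TATA box letters TATAAA, 29 bases before the start in each gene, a motif found in 13.6% of promoters. The full estrogen response element, GGTCANNNTGACC, was in neither window, as in nearly all promoters (0.0701% held it). Its half-site GGTCA, counted on both strands, occurred 1 time in Prss28 and 2 times in Prss29, and 40.5% of promoters held at least 1. On the plus strand it lies within tgggtcac in both windows. That stretch is not in capitals because it is not an unbroken run in the alignment. The half-site of progesterone and glucocorticoid receptors, TGTTCT, occurred 1 time in Prss28 and was not in Prss29, with 19.0% of promoters holding it, and the forkhead motif TGTTTAC was in neither (3.65% of promoters). These matches describe letters in a window and say nothing of binding.

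Prss29 was abundant with tamoxifen, with or without alpelisib, and at or near 0 otherwise. Its level was 191 and 209 FPKM with tamoxifen plus alpelisib, 198 and 277 FPKM with tamoxifen, 0 and 0 FPKM with estradiol and 0.512 FPKM with vehicle. The 4 libraries with tamoxifen lay far above the other 3, while the libraries with tamoxifen plus alpelisib and with tamoxifen overlapped. Within each library with tamoxifen it ranked between 240 and 303 from the highest of all genes, whereas it ranked 11871 in the vehicle library. Because this is RNA from many cells, fewer cells making a transcript and less transcript per cell cannot be told apart.

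On the log2(FPKM + 1) scale, Prss29 was higher with tamoxifen than with vehicle by 7.28 ± 0.23 (SE of the fit), the sixth highest difference of 12314 genes tested. The means were 237 ± 55.9 FPKM with tamoxifen (SD, n = 2) and 0.512 FPKM with vehicle (n = 1), a 464-fold ratio. The vehicle value corresponds to about 10 fragments, and their counting error alone (95% Poisson interval) puts the ratio between 252 and 967. With tamoxifen plus alpelisib the mean was 200 ± 13.0 FPKM, and the difference from tamoxifen alone was -0.23 ± 0.18, with overlapping libraries. That difference became 0.02 without tamoxifen library 2, the highest of all 7. No fold is given against estradiol, where Prss29 was listed at 0 in both libraries. In estradiol library 1, an estimated 3 fragments would have given 0.170 FPKM, which is the level that a count of 0 allows there. No such limit can be given for estradiol library 2, whose depth could not be estimated. Genes above 0 numbered 14552 there, the fewest of all 7 libraries, against 16313 in estradiol library 1.

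Prss29 was the 1 gene in the table with at least 100 FPKM in all 4 libraries with tamoxifen and under 1 FPKM in the other 3. Lowering the first limit to 10 FPKM gave 6 genes, namely Hsd17b2, Kap, Lmo1, Otop1, Prss29 and Tpsab1. These limits were set with the values of Prss29 known, and the counts place it among other genes without testing it.

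Spink12 was also high with tamoxifen, but unlike Prss29 it was abundant with estradiol. Its level was 167 and 179 FPKM with tamoxifen plus alpelisib, 303 and 449 FPKM with tamoxifen, 116 and 72.8 FPKM with estradiol and 0.757 FPKM with vehicle. The groups fell in the order tamoxifen, tamoxifen plus alpelisib, estradiol and vehicle, and no library of one group overlapped the next. The single vehicle library has no spread of its own.

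Against vehicle, Spink12 was higher by 7.72 ± 0.35 with tamoxifen on the log2(FPKM + 1) scale, the fourth highest difference among the genes tested. The means were 376 ± 103 FPKM with tamoxifen and 0.757 FPKM with vehicle, a 496-fold ratio that the estimated 13 fragments in vehicle place between 290 and 932. With estradiol it was higher than vehicle by 5.73 ± 0.35, from means of 94.5 ± 30.7 and 0.757 FPKM, and this was the highest difference of all 12314 genes. The ratio was 125-fold, with a counting interval of 73.0 to 234.

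Spink12 also differed between the treatments. Its mean was 3.98-fold higher with tamoxifen than with estradiol, a log2 difference of 1.99 ± 0.29. Adding alpelisib went with a lower level, 173 ± 8.84 FPKM with tamoxifen plus alpelisib and 376 ± 103 FPKM with tamoxifen, a log2 difference of -1.09 ± 0.29. That placed Spink12 at rank 129 from the lowest of the genes tested. Both differences were larger than the gap between replicates, which was 1.07-fold with tamoxifen plus alpelisib, 1.48-fold with tamoxifen and 1.60-fold with estradiol.

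Prss28, the close relative of Prss29, was barely present. Its level was 1.37 and 0.901 FPKM with tamoxifen plus alpelisib, 0.106 and 0.534 FPKM with tamoxifen, and 0 in both estradiol libraries and in vehicle. It was detected in the 4 libraries with tamoxifen and in none of the other 3, and the 2 groups with tamoxifen did not overlap. These values correspond to an estimated 25 and 15 fragments with tamoxifen plus alpelisib and to 2 and 9 fragments with tamoxifen.

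The mean of Prss28 was 1.13 ± 0.331 FPKM with tamoxifen plus alpelisib and 0.320 ± 0.303 FPKM with tamoxifen (SD, n = 2 each), a 3.55-fold ratio. The 2 tamoxifen libraries themselves differed by 5.04-fold, more than the ratio between the groups. The corresponding difference on the log2(FPKM + 1) scale was 0.70 ± 0.20, since the added 1 shrinks changes of low values, and it was 0.47 without tamoxifen library 1 and 0.94 without tamoxifen library 2. The gene entered the fit only because tamoxifen plus alpelisib library 1 passed 1 FPKM. With so few fragments, the absence of Prss28 from estradiol and vehicle means only that it was below the level of 3 fragments. That level was an estimated 0.169 FPKM in estradiol library 1 and 0.153 FPKM in vehicle, and could not be estimated in estradiol library 2. Across the 12314 genes tested, 11.7% passed an adjusted p of 0.05 between tamoxifen plus alpelisib and tamoxifen, 39.0% between tamoxifen and vehicle, 35.5% between estradiol and vehicle and 48.5% between tamoxifen and estradiol. Because the members were selected on these contrasts, nothing about them is read from those shares.

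**Figure D1:**
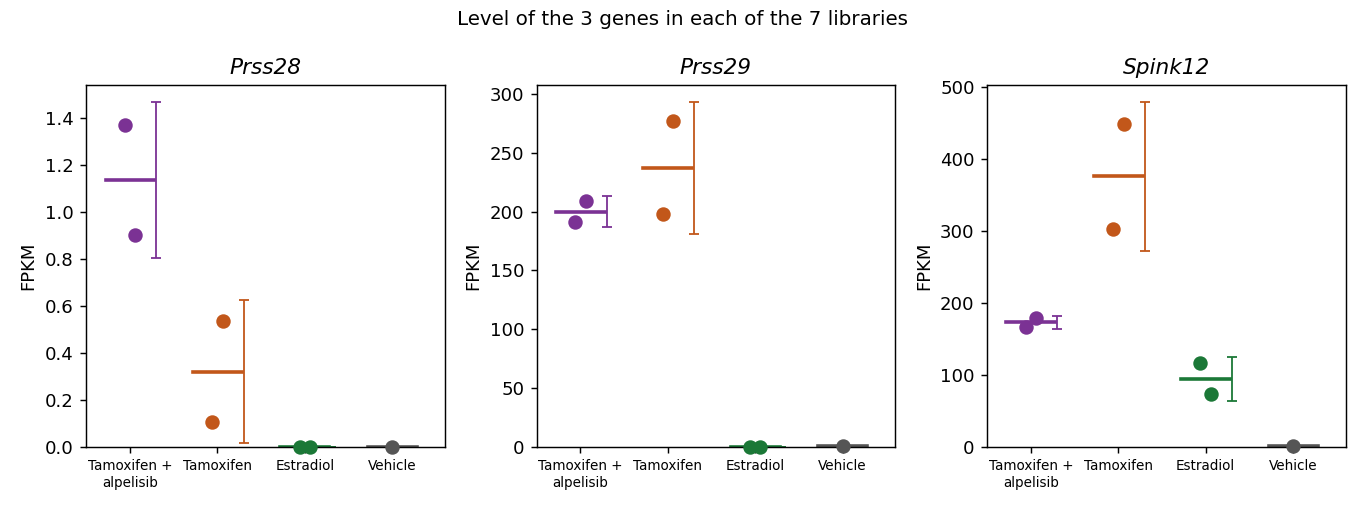
FPKM of Prss28, Prss29 and Spink12 in each group, on a separate linear axis for each gene. Points are libraries, horizontal lines are group means and the error bar to the right of each line is the SD (n = 2; vehicle has 1 library and no error bar). Prss29 lies between 191 and 277 FPKM with tamoxifen and at no more than 0.512 without it, Spink12 is also at 72.8 to 116 FPKM with estradiol, and Prss28 does not pass 1.37 FPKM.

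The balance between the inhibitor and the proteases differed between libraries. Spink12 RNA stood at 0.874 and 0.857 times Prss29 RNA with tamoxifen plus alpelisib, and at 1.53 and 1.62 times with tamoxifen. The ratio was similar within each pair of libraries and did not overlap between them. In vehicle it was 1.48, from about 13 and 10 fragments. With estradiol it has no value, since Spink12 was present while Prss29 was listed at 0. Prss28 RNA was 0.717% and 0.431% of Prss29 RNA with tamoxifen plus alpelisib, and 0.0536% and 0.193% with tamoxifen. All of these ratios compare values per transcript length and say nothing of protein.

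The 2 proteases are similar enough that reads might be shared, so their annotated transcripts were compared. Of 1117 aligned bases, 767 were identical (68.7%), with a longest run of 27. None of the 1141 stretches of 50 bases in Prss28 occurred in the transcripts of another gene, while 8 of 1132 in Prss29 did, all in 1 other annotated gene. None of the 958 stretches in Spink12 was shared. The read length of these libraries and the way reads were assigned are not stated, so the part of shared reads in the Prss28 values was not tested.

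Across the 7 libraries, the profile of Prss29 was closest to that of Penk, which encodes the opioid precursor proenkephalin. Likeness was the root mean square difference of log2(FPKM + 1) after centring each gene on its mean, and it was 0.73 for Penk (Pearson r = 0.99, n = 7, as a description). Penk stood at 155 and 152 FPKM with tamoxifen plus alpelisib, 236 and 253 FPKM with tamoxifen, 0.404 and 0 FPKM with estradiol and 4.51 FPKM with vehicle. The kallikrein Klk1b24, the fatty acid binding protein Fabp5, arginase 1 (Arg1) and Kap followed, with differences of 0.84 to 0.98. Klk1b24 and Kap were, like Prss29, listed at 0 in both estradiol libraries. In vehicle Klk1b24 was at 8.73 FPKM and Kap at 0. Kap stood at 64.1 and 70.5 FPKM with tamoxifen plus alpelisib and 31.5 and 55.2 FPKM with tamoxifen.

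Spink12 was closest to Uox, the urate oxidase gene, with a difference of 0.57 (r = 0.98). Uox was at 143 and 149 FPKM with tamoxifen plus alpelisib, 195 and 209 FPKM with tamoxifen, 37.3 and 33.6 FPKM with estradiol and 0.911 FPKM with vehicle. Next came the peptidoglycan recognition protein gene Pglyrp1, the polymeric immunoglobulin receptor gene Pigr, the interleukin-36 gene Il1f6 and the steroid 21-hydroxylase gene Cyp21a1 (differences of 0.68 to 0.83). Pigr stood at 221 and 218 FPKM with tamoxifen plus alpelisib, 358 and 321 FPKM with tamoxifen, 120 and 147 FPKM with estradiol and 5.41 FPKM with vehicle. Between the members themselves, Pearson r over the 7 libraries was 0.76 between Prss28 and Prss29, 0.64 between Spink12 and Prss29 and 0.43 between Spink12 and Prss28. The root mean square differences of these pairs were 3.41, 2.88 and 2.30, so by that measure Prss28 and Prss29 were the least alike, though their r was the highest. Prss28, at no more than 1.37 FPKM, varied little on this scale, so its differences mostly follow the range of the other gene.

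Prss28 spans a narrow range on this scale, so its closest genes differ from it by little. The closest were Cdkn2b (0.11, r = 0.98), Pnpla2, Egr1, Xdh and Pglyrp4. Of these, Pglyrp4 has a level like that of Prss28, 1.10 and 0.844 FPKM with tamoxifen plus alpelisib, 0.329 and 0.667 FPKM with tamoxifen, 0 and 0.0783 FPKM with estradiol and 0 FPKM with vehicle.

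**Figure D2:**
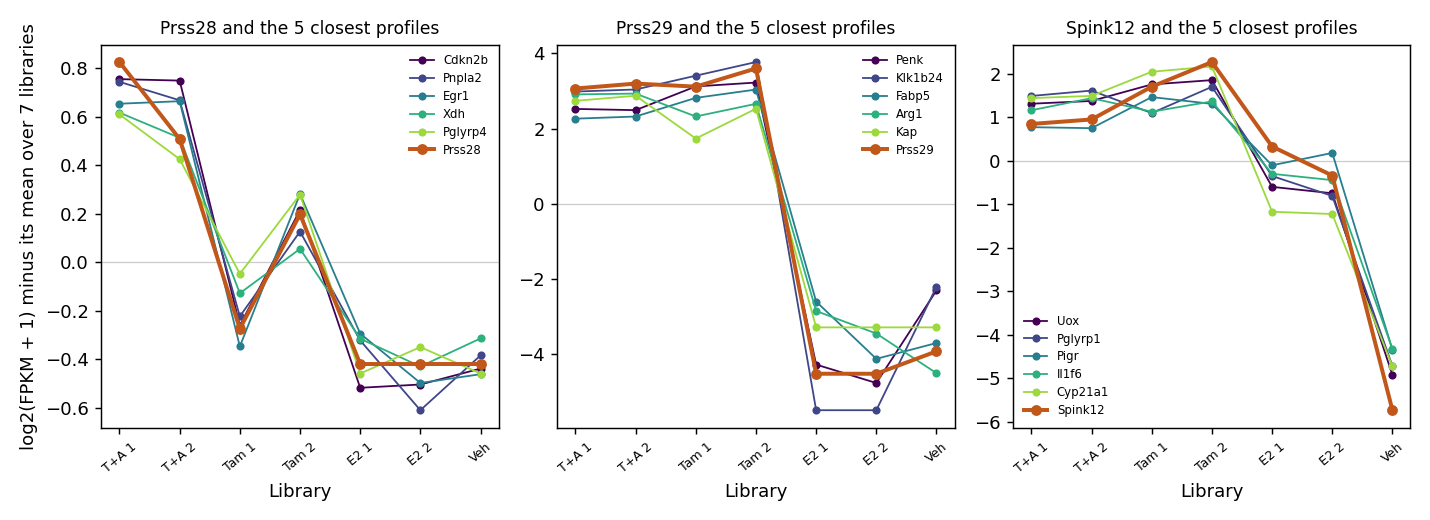
Each line is 1 gene: log2(FPKM + 1) minus its mean over 7 libraries, for each member (orange, thick) and the 5 genes with the closest profile. Libraries run from tamoxifen plus alpelisib (T+A) through tamoxifen (Tam) and estradiol (E2) to vehicle (Veh). Prss29 and its closest genes drop at both estradiol libraries and stay low in vehicle, whereas Spink12 and its closest genes reach their lowest point in vehicle.

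Genes beside Prss28 and Prss29 on the chromosome had mixed patterns. In RefSeq order the pair lies between Prss34, a mast cell and basophil protease gene, and the tryptase genes, with Tpsab1, Tpsb2 and Tpsg1 following. Tsr3, a ribosome maturation gene 4 protein-coding places away, was between 6.11 and 10.3 FPKM in all 7 libraries. It was higher with estradiol, at 9.30 and 10.3 FPKM, than with vehicle, at 6.11 FPKM (0.60 ± 0.17). Gnptg, 5 places away, was higher in the 4 libraries with tamoxifen than in the other 3, at 11.8 and 10.8 FPKM with tamoxifen plus alpelisib, 10.7 and 12.6 FPKM with tamoxifen, 7.79 and 3.12 FPKM with estradiol and 7.63 FPKM with vehicle. It passed the test between tamoxifen and estradiol (1.07 ± 0.34, limma, adjusted p = 0.0395). Cacna1h, a calcium channel gene too low to be tested, had the same separation at low levels, with 0.331 and 0.484 FPKM with tamoxifen plus alpelisib, 0.574 and 0.573 FPKM with tamoxifen, 0.0459 and 0.0842 FPKM with estradiol and 0.207 FPKM with vehicle. Tekt4 was at 0.683 and 0.787 FPKM with tamoxifen plus alpelisib, 1.05 and 1.51 FPKM with tamoxifen, 0.611 and 0.849 FPKM with estradiol and 0.478 FPKM with vehicle. It entered the fit only because the libraries with tamoxifen alone passed 1 FPKM, so its difference from vehicle, 0.62 ± 0.19, is a description. Prss34 did not pass 0.0584 FPKM. Tpsb2, the next protein-coding gene after Prss29, was highest in vehicle, with 0.307 and 0.338 FPKM with tamoxifen plus alpelisib, 0.356 and 0.334 FPKM with tamoxifen, 0 and 0 FPKM with estradiol and 2.23 FPKM with vehicle. On the log2 scale it was lower with tamoxifen than with vehicle by 1.26 ± 0.14. Tpsb2 entered the fit only because the vehicle library passed 1 FPKM, so this difference is a description.

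Tpsab1, which RefSeq lists as a transcribed pseudogene in the C57BL/6J assembly, encodes a mast cell tryptase in other mouse strains. Its level was 20.9 and 22.1 FPKM with tamoxifen plus alpelisib, 23.8 and 43.4 FPKM with tamoxifen, 0 and 0 FPKM with estradiol and 0.0567 FPKM with vehicle. The libraries with tamoxifen did not overlap the others. On the log2 scale Tpsab1 was higher with tamoxifen than with vehicle by 4.97 ± 0.33. It entered the fit only because the libraries with tamoxifen passed 1 FPKM, so this difference is a description. Its annotated transcript shares no 50-base stretch with any other gene, and 63.4% of its aligned bases with Prss29.

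Mast cells carry several of these tryptases, so mast cell markers were set beside them. Cpa3, Mcpt4, Cma1 and Ms4a2 were listed at 0 in all 6 treated libraries, and in vehicle the first 3 were at 0.510, 0.976 and 0.854 FPKM. Fcer1a and Mrgprb2 did not pass 1 FPKM, and Kit and Hdc, which other cells also express, were highest with estradiol. Hdc was at 15.1 and 14.4 FPKM with tamoxifen plus alpelisib, 27.6 and 23.5 with tamoxifen, 193 and 156 with estradiol and 66.6 with vehicle. The 10 markers in the table, of 11 listed, summed to 37.8 and 38.2 FPKM with tamoxifen plus alpelisib, 52.7 and 68.7 with tamoxifen, 199 and 164 with estradiol and 71.8 with vehicle, and Hdc and Tpsab1 made up most of each sum with tamoxifen. The list thus held genes at 0 and genes at clear levels in the libraries where Prss29 was high, and the part of mast cells in the result was not tested. The 9 leukocyte markers summed to 46.7 and 49.7 FPKM with tamoxifen plus alpelisib, 63.1 and 70.5 with tamoxifen, 248 and 151 with estradiol and 34.7 with vehicle.

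**Figure D3:**
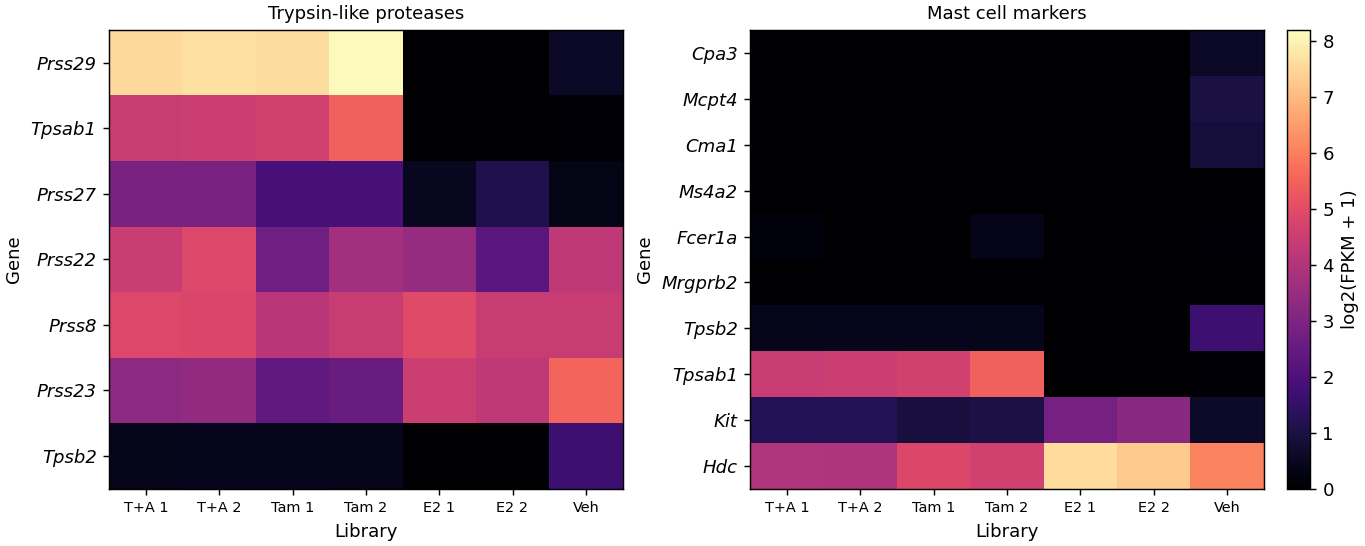
Colour gives log2(FPKM + 1) in each library, named as T+A (tamoxifen plus alpelisib), Tam (tamoxifen), E2 (estradiol) and Veh (vehicle). The left panel shows Prss29 and other trypsin-like protease genes, and the right panel the mast cell markers in the table. Prss29 and Tpsab1 are high in the 4 libraries with tamoxifen, where Cpa3, Mcpt4, Cma1 and Ms4a2 are listed at 0 and Hdc is at 14.4 to 27.6 FPKM.

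Spink12 lies in a cluster of Kazal inhibitor genes, most of which were not detected. Spink14, Spink6, Gm10267, Spinkl and Spink11 were listed at 0 in all 7 libraries. Spink5, which encodes the skin inhibitor LEKTI and lies 3 places away, was at 13.5 and 12.3 FPKM with tamoxifen plus alpelisib, 9.10 and 5.29 FPKM with tamoxifen, 0.440 and 0.421 FPKM with estradiol and 0.0204 FPKM with vehicle. On the log2 scale it was higher with tamoxifen than with vehicle by 2.97 ± 0.28, and than with estradiol by 2.48 ± 0.23. Spink5 entered the fit only because the libraries with tamoxifen passed 1 FPKM, so these differences are a description. Unlike Spink12, it was not higher with estradiol than with vehicle beyond the test (0.49 ± 0.28, adjusted p = 0.217). The predicted gene Gm94, 4 places away, was at 8.43 and 8.82 FPKM with tamoxifen plus alpelisib and listed at 0 in both tamoxifen libraries.

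**Figure D4:**
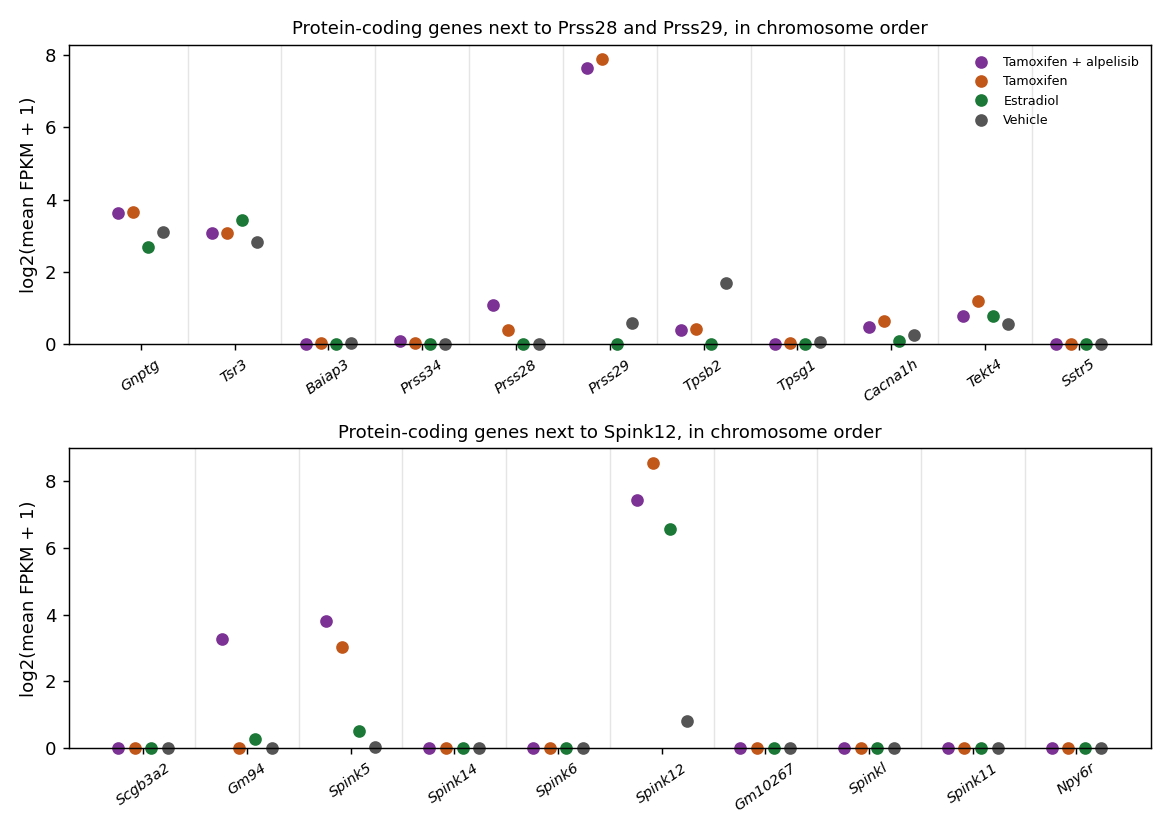
Height is log2(mean FPKM + 1) in each group, for the members and up to 5 protein-coding genes on each side in RefSeq order that are reported here, with Prss28 and Prss29 in one panel and Spink12 in the other. Colours are tamoxifen plus alpelisib, tamoxifen, estradiol and vehicle. Prss29 and Spink12 are the highest points with tamoxifen in their panels. Tsr3 lies between 6.11 and 10.3 FPKM in every library, highest with estradiol, and most other Spink genes are at 0.

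Within their families, Prss29 and Spink12 made up most of the RNA. Prss29 held 67.8% and 67.8% of the summed FPKM of 38 Prss and tryptase genes with tamoxifen plus alpelisib, 77.8% and 75.9% with tamoxifen, 0% with estradiol and 0.563% with vehicle. Spink12 held 91.5% and 91.2% of the sum of 12 Spink genes with tamoxifen plus alpelisib, 96.9% and 98.0% with tamoxifen, 90.9% and 95.7% with estradiol and 9.87% with vehicle. In vehicle, the highest of these families were Prss23 (46.1 FPKM) and Spink8 (6.30 FPKM).

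Of the other 36 Prss and tryptase genes, 9 were at 0 in every library, 19 stayed under 1 FPKM, and 8 could be tested. With tamoxifen relative to vehicle, 3 rose, namely Tpsab1, Prss27 and Prss32 (37.5%, against 14.9% of all genes), and 2 fell (24.1% of all genes). The median log2 difference was -0.13, beside -0.12 for all genes. Tpsab1 entered the fit only through the libraries with tamoxifen, and Prss32, listed at 0 with vehicle, only through treated libraries. The share that rose is therefore a description. Prss27, an epithelial protease gene, stood at 6.47 and 6.67 FPKM with tamoxifen plus alpelisib, 2.66 and 2.67 FPKM with tamoxifen, 0.406 and 1.22 FPKM with estradiol and 0.265 FPKM with vehicle. Its difference between tamoxifen and vehicle was 1.53 ± 0.27 (limma, adjusted p = 0.00629). The Prss32 call, 0.907 and 1.01 FPKM with tamoxifen against 0 with vehicle, did not hold without either tamoxifen library. Of the 2 that fell, Tpsb2 entered the fit only because the vehicle library passed 1 FPKM. Prss23 fell by 3.07 ± 0.18 (adjusted p = 0.000127). With estradiol relative to vehicle 2 rose (Prss12 and Prss32) and 2 fell, among 22.7% of all genes that rose and 12.8% that fell. Both rises missed the threshold in a fit of only those groups, with adjusted p of 0.0532 for Prss12 and 0.101 for Prss32 as the highest over the alternatives.

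Alpelisib added to tamoxifen went with calls in 3 of the 8, Prss12, Prss23 and Prss27, all higher, against 6.93% of all genes that were higher and 4.81% that were lower. All 3 calls were lost when any 1 of the 4 libraries compared was left out. The 6 lists described here held 21 calls in this comparison, and limma gave 0 without either library with tamoxifen plus alpelisib, where 28 and 29 members had an unadjusted p under 0.05. With tamoxifen relative to estradiol, 3 rose (Tpsab1, Tpsb2 and Prss27) and 2 fell (Prss23 and Prss12), among 12.3% of all genes that rose and 36.2% that fell. Tpsab1 entered the fit only through the libraries with tamoxifen. Tpsb2 was at 0.356 and 0.334 FPKM with tamoxifen against 0 with estradiol, and its call was lost with a replicate block.

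Among 15 Kazal domain genes other than Spink12, 7 could be tested. With tamoxifen relative to vehicle Spink5 rose and 3 fell (Spink8, Fstl3 and Fstl1), shares of 14.3% and 42.9% beside 14.9% and 24.1% of all genes, with a median of -0.23. Spink5 entered the fit only through the libraries with tamoxifen, so its rise is a description. The Spink8 call was lost without tamoxifen library 1 (highest adjusted p over the alternatives 0.059). With estradiol relative to vehicle Fstl3 and Fst fell (28.6%, beside 12.8% of all genes), with a median of -0.41 beside 0.12 for all genes, and the Fst call was lost in a fit of only those groups. Fst, the activin-binding follistatin gene, was at 49.3 and 53.5 FPKM with tamoxifen plus alpelisib against 6.68 and 8.98 FPKM with tamoxifen, a difference of 2.58 ± 0.17 (limma, adjusted p = 0.0026, lost without either library with alpelisib, with 0.0554 as the highest value over the alternatives). Among 24 other protease inhibitors tested, 5 rose and 9 fell with tamoxifen relative to vehicle (20.8% and 37.5%, beside 14.9% and 24.1% of all genes; median 0.09). With estradiol relative to vehicle 3 rose and 5 fell (12.5% and 20.8%, beside 22.7% and 12.8%; median -0.21), and the 5 became 3 without estradiol library 2 and 2 in a fit of only those groups. Serpinb11, a serpin gene, was at 81.6 and 87.5 FPKM with tamoxifen plus alpelisib, 63.7 and 70.7 FPKM with tamoxifen, 6.13 and 5.21 FPKM with estradiol and 6.03 FPKM with vehicle, so that tamoxifen was higher than vehicle by 3.28 ± 0.17 (adjusted p = 0.000101). Slpi, Serpinb2 and Wfdc1 rose with tamoxifen plus alpelisib relative to tamoxifen, with the loss of calls given above.

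Other genes of implantation and of glands went both ways. Of 37 implantation genes tested, 4 rose and 19 fell with tamoxifen relative to vehicle (10.8% and 51.4%, beside 14.9% and 24.1% of all genes), and the median difference was -0.59, beside -0.12 for all genes. The 19 became 12 without either library with tamoxifen plus alpelisib and 10 in a fit of only those groups. Muc1, which encodes an apical mucin, rose by 3.14 ± 0.21 (limma, adjusted p = 0.000213), and Ptgs1, a prostaglandin synthase gene, fell by 2.93 ± 0.15 (adjusted p = 9.81e-05). With estradiol relative to vehicle, 11 rose and 12 fell (29.7% and 32.4%, beside 22.7% and 12.8%; median -0.18), and the 12 became 7 without either library with tamoxifen plus alpelisib and 4, beside 7 that rose, in a fit of only those groups. With tamoxifen plus alpelisib relative to tamoxifen 9 rose and 2 fell (24.3% and 5.41%, beside 6.93% and 4.81%; median 0.07), with the loss of calls given above. Lif, the signal required for implantation in mice, was at 73.3 and 74.7 FPKM with tamoxifen plus alpelisib, 26.0 and 43.5 FPKM with tamoxifen, 20.5 and 13.1 FPKM with estradiol and 35.4 FPKM with vehicle. Its difference between tamoxifen and vehicle did not pass the test (-0.07 ± 0.36, adjusted p = 0.896). Of 22 gland genes, 2 rose (Ltf and Prom1) and 8 fell with tamoxifen relative to vehicle (9.09% and 36.4%, beside 14.9% and 24.1%; median -0.49).

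Ltf, the lactoferrin gene and a classical estrogen target of mouse uterine epithelium, had an order like that of Spink12 at higher levels, 1733 and 1700 FPKM with tamoxifen plus alpelisib, 2556 and 2539 FPKM with tamoxifen, 1520 and 1324 FPKM with estradiol and 83.1 FPKM with vehicle. It rose with estradiol relative to vehicle, by 4.08 ± 0.30 (adjusted p = 0.00064), as it did with tamoxifen (4.92 ± 0.30, adjusted p = 0.000148). Among 11 steroid receptor and cofactor genes, 1 rose (Greb1) and 6 fell with tamoxifen relative to vehicle (9.09% and 54.5%, beside 14.9% and 24.1% of all genes; median -0.61), and the 6 became 3 without any 1 of the 4 libraries with tamoxifen. With estradiol relative to vehicle 3 rose (27.3%, beside 22.7% of all genes; median 0.35), and 6 did without estradiol library 1. Pgr, the progesterone receptor gene, was at 11.5 and 11.4 FPKM with tamoxifen plus alpelisib, 15.3 and 14.9 FPKM with tamoxifen, 37.2 and 39.4 FPKM with estradiol and 15.2 FPKM with vehicle. It rose with estradiol relative to vehicle by 1.28 ± 0.15 (adjusted p = 0.00204) and fell by 1.29 ± 0.12 with tamoxifen relative to estradiol (adjusted p = 0.000577). The libraries with the most Prss29 were not those with the most Pgr, and the part of the receptor in the Prss29 levels was not tested. Esr1, the estrogen receptor gene, was at 20.6 to 22.7 FPKM with tamoxifen, with or without alpelisib, 31.5 and 53.5 FPKM with estradiol and 30.0 FPKM with vehicle.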

How the data were processed

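RNA from endometrial epithelial cells was sequenced in 7 libraries. CASAVA, Bowtie and Cufflinks are named, without versions or roles, per the submitters' processing notes. The only build named there is hg19, a human one, while the symbols are mouse symbols, so positions come from RefSeq (GRCm38.p6) and serve only for names, order and promoters. The deposited values are FPKM, read as such from the values, since they are not whole numbers. Of 24353 genes, 6155 were at 0 throughout and 23432 symbols matched the annotation. No other normalization was applied to the main values. Depth and fragments were estimated from steps among low values of 1436 genes with 1 transcript of 800 to 1600 bases, and cover counting error only.

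log2(FPKM + 1) of the 12314 genes with at least 1 FPKM in at least 1 library was fitted with limma 3.58.1 (R 4.3.3) with a trend, as 4 group means over all 7 libraries, leaving 3 residual degrees of freedom plus a prior of 3.27. A fold change on this scale understates the change of low genes. Adjusted p-values follow Benjamini and Hochberg over the genes of a comparison, and a gene was called under 0.05. They measure the spread between libraries, and the lone vehicle library is assumed to vary like the others. The fit was tested on simulated data. The members, the lists and the rule for named genes were chosen with earlier results of these data known. The rule names the members, the 5 closest profiles and 5 neighbours on each side, up to 3 of the highest and 3 of the lowest called genes per list and comparison, and 8 fixed genes, of which those that bear on the members are given. A neighbour of Prss28 and Prss29 is not reported here. Alternatives were median-of-ratios scaling, other filters, a pseudocount of 0.1, robust empirical Bayes, a replicate block, only the 2 groups compared, and leaving out each treated library.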

Additional observations from a re-analysis of the deposited data

How the results depend on the processing

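The pseudocount sets the size of differences from low values. With 0.1 added in place of 1, the log2 difference between tamoxifen and vehicle was 8.58 for Prss29 and 8.75 for Spink12, that between estradiol and vehicle was 6.75 for Spink12, and that between tamoxifen plus alpelisib and tamoxifen was 1.75 for Prss28. Leaving out 1 treated library at a time gave 7.04 to 7.52 for Prss29 between tamoxifen and vehicle, 0.47 to 0.94 for Prss28 and -0.47 to 0.02 for Prss29 between tamoxifen plus alpelisib and tamoxifen, the last reversed (0.0156) without tamoxifen library 2. Prss28 has no value where 1 FPKM in 2 libraries was required or without tamoxifen plus alpelisib library 1. The differences of Spink12 between tamoxifen plus alpelisib and tamoxifen (-1.37 to -0.81) and between tamoxifen and estradiol (1.66 to 2.35) kept their sign in all 13 alternatives.

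Between tamoxifen plus alpelisib and tamoxifen, 1445 genes were called. That count was 870 with no filter and ranged from 14 to 1809 with 1 library left out, the lowest counts, 18 and 14, coming without either library with alpelisib. The 21 list members called there became 13 with no filter and 0 to 25 with 1 library left out. Between estradiol and vehicle, 4366 genes were called, 1597 in a fit of only those groups and 2808 to 5063 with 1 library left out, and 50 list members became 26 in the fit of those groups. The cause was not tested.

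The labels do not say that the replicate numbers pair the samples. Over genes, the differences of mouse 2 minus mouse 1 correlated at 0.273 between tamoxifen plus alpelisib and tamoxifen. They correlated at -0.182 between tamoxifen plus alpelisib and estradiol and at -0.403 between tamoxifen and estradiol. Each group gives only 1 such difference, so these values cannot decide whether the numbers mark a pairing. With a replicate block, 589 genes and 12 list members were called between tamoxifen plus alpelisib and tamoxifen. Median-of-ratios scaling moved the median of all genes from -0.12 to 0.02 between tamoxifen and vehicle, from 0.12 to 0.00 between estradiol and vehicle and from -0.26 to 0.01 between tamoxifen and estradiol, and the share of calls that were higher from 38.2% to 49.7%, from 64.0% to 48.4% and from 25.4% to 52.4%. Prss28 rests on an estimated 2 to 25 fragments a library.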
